A study of Rattus norvegicus with 5 samples.

Results

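The genes described here are 6 that encode parts of the sodium pump or small proteins that regulate it: the beta subunits Atp1b1, Atp1b2 and Atp1b3, and the FXYD proteins Fxyd1, Fxyd6 and Fxyd7. They were taken by name, as every non-control probe whose gene name in the array files, or its current rat symbol, is one of those 6, and they were picked after the kaolin to saline ratios of these arrays had been seen. The ratios below are therefore a description of the genes and carry no test of their own. The rule found 8 probes of 41012, 3 of them for Atp1b2 and 1 for each other gene, and the 6 genes stand among 12053 with an official symbol and a tested probe. All 8 probes were well above background in both channels on all 5 arrays.

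The study compared the parietal cortex of rats made hydrocephalic with that of sham controls. Pups received kaolin, a clay mineral, or saline on postnatal day 1, stayed with the dam, and gave brain tissue on postnatal day 22 (day 21 after kaolin). Each of 5 two-colour microarrays carried RNA of 1 kaolin sample labelled with Cy3 and 1 saline sample labelled with Cy5, and the dyes were never exchanged, so dye and treatment cannot be told apart. The labels give no strain, sex, litter or pooling for either group, and do not say whether the 5 pairs are separate animals, so a p-value measures the spread between these arrays.

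The sodium pump, Na,K-ATPase, uses ATP to export sodium and import potassium, and it restores the ion gradients that neuronal firing and glial uptake of potassium and glutamate run down. A catalytic alpha subunit does the transport. The beta subunit is a glycoprotein that helps the alpha subunit fold, leave the endoplasmic reticulum and reach the cell surface, and it also takes part in adhesion between cells. FXYD proteins are short single-span membrane proteins that bind the pump and tune its affinity for ions. In brain, Atp1b1 is carried largely by neurons and by epithelium, Atp1b2 was first described as an adhesion molecule on glia, and Fxyd7 is a brain-restricted member of its family.

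The stretch of genome around the transcription start is shown for the member with the highest mean ratio, Fxyd1, and for the beta subunits Atp1b2 and Atp1b3, whose mean ratios were 0.16 and -0.09, so that their base composition can be read beside the values. Of the 6 genes, 4 had an entry in the RefSeq promoter table of build GRCr8 (Atp1b2, Atp1b3, Fxyd1 and Fxyd6), and Atp1b1 and Fxyd7 did not. Each line runs 5′ to 3′ from 250 bases before to 50 bases after the start, on the minus strand. Capitals mark matches, on either strand, to the GC box GGGCGG, the CCAAT box CCAAT or the TATA box TATAAA, and no matches overlap in these windows.
Atp1b2, chr10:54823659-54823958: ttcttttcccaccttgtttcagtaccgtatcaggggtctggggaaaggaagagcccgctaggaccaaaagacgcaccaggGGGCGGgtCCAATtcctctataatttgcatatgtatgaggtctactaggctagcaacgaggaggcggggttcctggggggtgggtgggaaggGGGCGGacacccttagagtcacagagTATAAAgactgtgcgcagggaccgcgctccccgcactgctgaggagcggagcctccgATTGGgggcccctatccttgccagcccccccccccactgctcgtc
Atp1b3, chr8:105821102-105821401: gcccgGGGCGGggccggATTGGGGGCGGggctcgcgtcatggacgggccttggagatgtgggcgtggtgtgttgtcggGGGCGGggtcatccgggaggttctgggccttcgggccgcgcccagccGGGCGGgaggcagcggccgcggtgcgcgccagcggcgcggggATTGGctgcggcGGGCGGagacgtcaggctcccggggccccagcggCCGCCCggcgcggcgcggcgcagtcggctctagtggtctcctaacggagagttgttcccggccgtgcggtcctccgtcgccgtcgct
Fxyd1, chr1:95418531-95418830: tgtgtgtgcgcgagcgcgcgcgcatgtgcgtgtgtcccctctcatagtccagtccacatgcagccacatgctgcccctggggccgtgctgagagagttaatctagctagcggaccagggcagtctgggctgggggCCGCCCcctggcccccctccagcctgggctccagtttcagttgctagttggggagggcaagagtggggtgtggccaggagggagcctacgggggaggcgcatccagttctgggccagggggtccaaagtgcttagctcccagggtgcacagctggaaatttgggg
The Atp1b3 window held 6 GC boxes, 2 CCAAT boxes and 46 CpG dinucleotides, against a median of 7 CpG over all promoters of the table. The Atp1b2 window held 2 GC boxes, 2 CCAAT boxes, 1 TATA box and 14 CpG, and the Fxyd1 window 1 GC box and 12 CpG. The Fxyd6 window, on the plus strand, had none of these motifs and 17 CpG. A GC box was found in 33.1% of 33469 promoters of the same length, a CCAAT box in 37.5% and a TATA box in 14.2%. The interferon-type GAS letters TTCNNNGAA, present in 8.87% of promoters, were in none of the 4 windows.

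Across the arrays as a whole, 29118 probes were bright enough to test. Per array, 86 to 147 flagged spots were left out, and above background were 27957 to 29386 probes for kaolin and 27376 to 28935 for saline. By limma, with Benjamini-Hochberg adjustment over those probes, 0 passed the threshold of 0.05, the smallest adjusted p was 0.243, and 5280 had an unadjusted p under 0.05. Replicate 2 stood apart: across probes its ratios correlated with those of replicate 1 at -0.37, and with replicates 3, 4 and 5 at -0.17, -0.07 and -0.06, whereas replicates 3 and 4 correlated at 0.83. The labels state the same dyes for replicate 2 as for the others, so its direction was kept, and results without it and with its sign turned are given beside those they touch. Replicates 1 to 4 lay on 1 slide and replicate 5 on another. Neuron markers (6 of 6 listed), astrocyte markers (7 of 7) and oligodendrocyte markers (6 of 6) were above background often enough to be tested in this tissue labelled parietal cortex. In such bulk tissue, fewer cells of a type and less RNA per cell cannot be told apart.

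Of the 6 genes, 4 had a positive mean log2 ratio (kaolin over saline) and 2 a negative one, and 49.2% of all tested probes had a positive mean. The median of the 6 means was 0.15, against -0.0034 over all tested probes. With an adjusted p under 0.05, 0 of the 8 probes were called, where the share over the whole array was 0%. At an unadjusted p under 0.05, 1 of the 8 was higher in kaolin, Fxyd1, where 8.82% of all tested probes were, and 1 was lower, Atp1b1, where 9.32% were. Since the genes were chosen on this contrast, nothing is read from those counts. The number of the 6 genes with a positive ratio was 1 on replicate 1, 2 on replicate 2, 5 on replicate 3, and 4 on replicates 4 and 5.

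**Figure D1:**
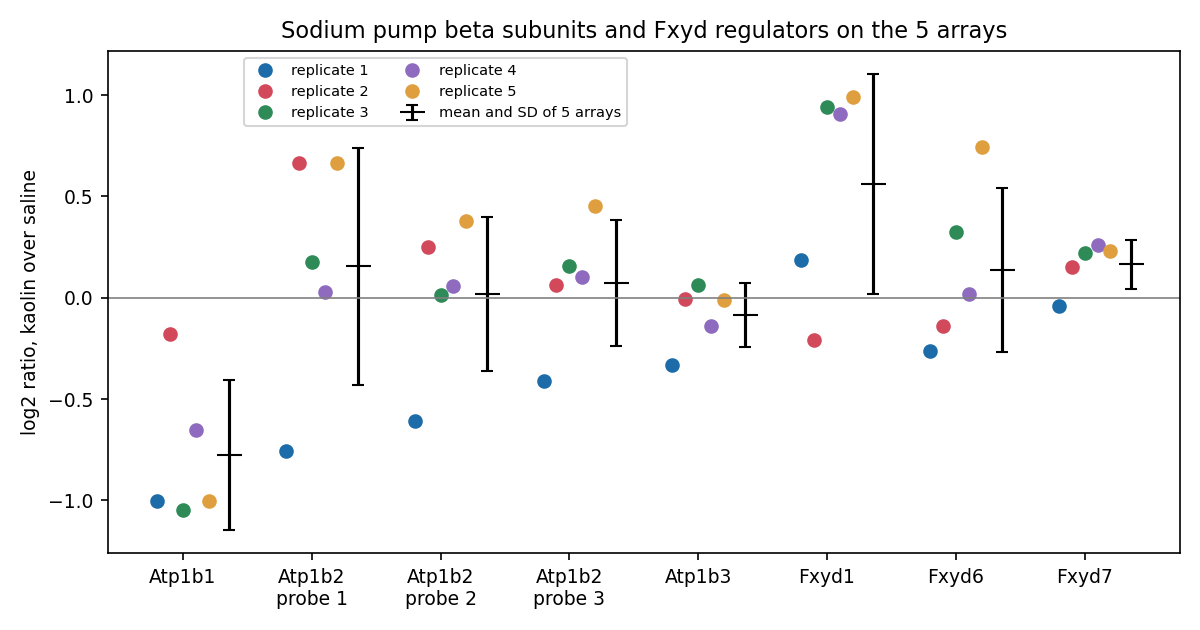
Log2 ratio of kaolin over saline (vertical axis) for each of the 8 probes, with 1 coloured point per array and a bar for the mean and SD of the 5 arrays. Atp1b1 lies below 0 on 5 of 5 arrays, Fxyd1 is near 0.9 to 1.0 on replicates 3, 4 and 5 but not on replicates 1 and 2, and the 3 Atp1b2 probes are below 0 on replicate 1 alone.

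Atp1b1 encodes the beta1 subunit, the most widespread partner of the alpha subunits. Its probe, at chr13:80214142-80214201 on the minus strand of build rn4, had normalised log2 levels in the saline samples of replicates 1 to 5 of 17.08, 16.62, 16.90, 16.88 and 16.96. In the kaolin samples of the same arrays the levels were 16.07, 16.44, 15.85, 16.23 and 15.95. Every kaolin sample lay below every saline sample, the closest being the kaolin and saline samples of replicate 2. The group means were 16.11 ± 0.23 in kaolin and 16.89 ± 0.17 in saline (SD, n = 5 each). Atp1b1 was the single probe of the 8 whose groups did not overlap. Of the 29109 probes with a level in all samples, 1.61% had all kaolin levels below all saline levels and 1.43% had them all above. Those shares cover probes of every brightness and were not computed for spots as bright as Atp1b1.

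The log2 ratios of Atp1b1 were -1.01, -0.18, -1.05, -0.65 and -1.0 on replicates 1 to 5. Their mean was -0.78 ± 0.37 (SD, n = 5), a 1.71-fold higher signal in saline, and the ratio was negative on 5 of 5 arrays. Of all tested probes, 0.889% had a lower mean. Without replicate 2 the mean was -0.93 ± 0.18 (n = 4), within the slide of replicates 1 to 4 it was -0.72 ± 0.40, and with the sign of replicate 2 turned it was -0.71 ± 0.52.

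The Atp1b1 spot was among the brightest on the arrays, and bright spots as a class leaned the same way. Its raw mean signal ran from 45065 to 66763 for kaolin (Cy3) and from 133715 to 172385 for saline (Cy5), and no spot of the 8 probes was saturated. Of 100 probes with a mean brightness over 16 on the log2 scale, 84 had a negative mean ratio. Their median ratio was -0.41, -0.25, -0.28, -0.26 and -0.18 on replicates 1 to 5, and 7 of them had a lower mean than Atp1b1. On replicate 2, where the Atp1b1 groups came closest, the Atp1b1 ratio of -0.18 was nearer 0 than that median of -0.25. Among 92 probes within 0.5 of the brightness of Atp1b1, the median of the means was -0.27 and 5 lay below Atp1b1. The part of spot brightness in the Atp1b1 ratio was not tested.

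**Figure D2:**
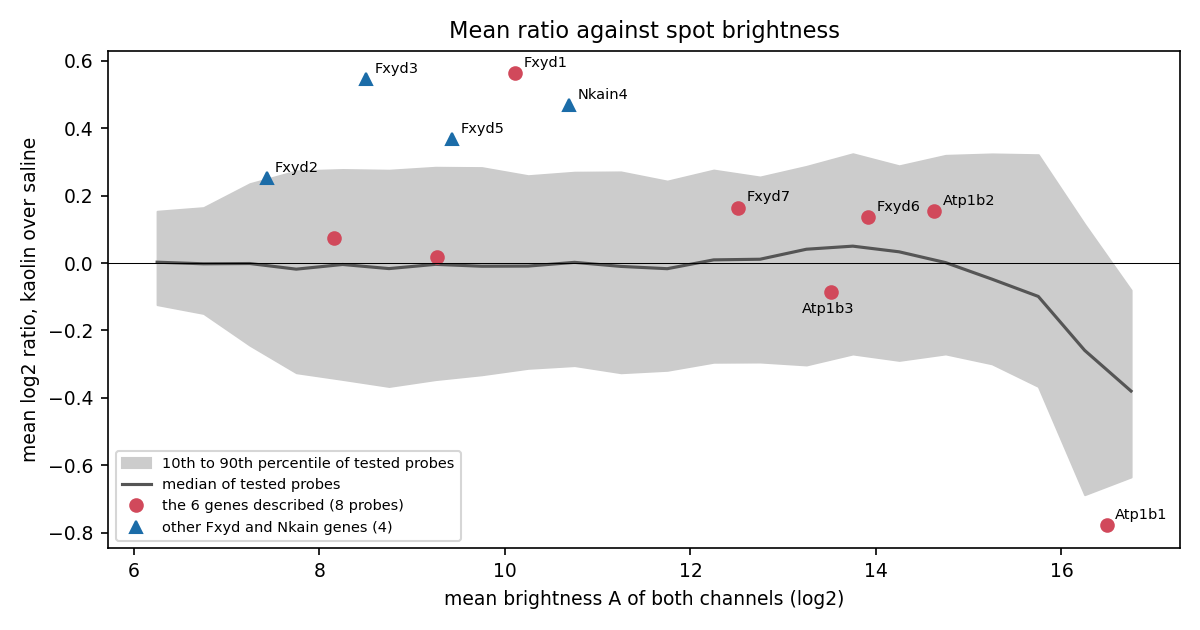
Mean log2 ratio of kaolin over saline (vertical axis) against the mean log2 brightness of both channels (horizontal axis). Red circles are the 8 probes of the 6 genes, blue triangles Fxyd2, Fxyd3, Fxyd5 and Nkain4, the line is the median and the band the 10th to 90th percentile of tested probes by brightness. The median falls below 0 at the bright end, where Atp1b1 lies at -0.78.

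Atp1b2 encodes the beta2 subunit. Its brightest probe, at chr10:56418392-56418451, gave log2 ratios of -0.76, 0.67, 0.18, 0.03 and 0.66 on replicates 1 to 5, with a mean of 0.16 ± 0.58 (SD, n = 5). Its levels in saline were 14.75, 14.07, 14.62, 14.76 and 14.58, and in kaolin 13.99, 14.73, 14.80, 14.79 and 15.24. The groups overlapped, replicate 1 had the lowest kaolin level and replicate 2 the lowest saline level.

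The other Atp1b2 probes covered neighbouring positions of the same gene. The probe at chr10:56419504-56419563 gave -0.61, 0.25, 0.01, 0.06 and 0.38, with a mean of 0.02 ± 0.38. The probe at chr10:56421694-56421753 gave -0.41, 0.06, 0.16, 0.10 and 0.45, with a mean of 0.07 ± 0.31. All 3 probes were negative on replicate 1 and positive on the other 4 arrays, and the spread from lowest to highest array was 1.42, 0.989 and 0.864. These probes were read on the same samples, so they are not replicates of the treatment. Their mean log2 brightness was 14.6, 9.27 and 8.16, and whether all 3 report the same transcript was not tested. Without replicate 1 the mean of the brightest probe was 0.38 ± 0.33, without replicate 2 it was 0.03 ± 0.59, and with the sign of replicate 2 turned it was -0.11 ± 0.60.

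Atp1b3 encodes the beta3 subunit. Its probe, at chr8:101406203-101406262, gave log2 ratios of -0.33, -0.01, 0.06, -0.14 and -0.01, with a mean of -0.09 ± 0.16 (SD, n = 5). Kaolin levels ran from 13.24 to 13.60 and saline levels from 13.47 to 13.62, so the groups overlapped. Replicate 1 gave the lowest ratio, and without it the mean was -0.02 ± 0.08. The current rat reference also lists an Atp1b3 pseudogene, and whether the probe binds its RNA was not tested.

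**Figure D3:**
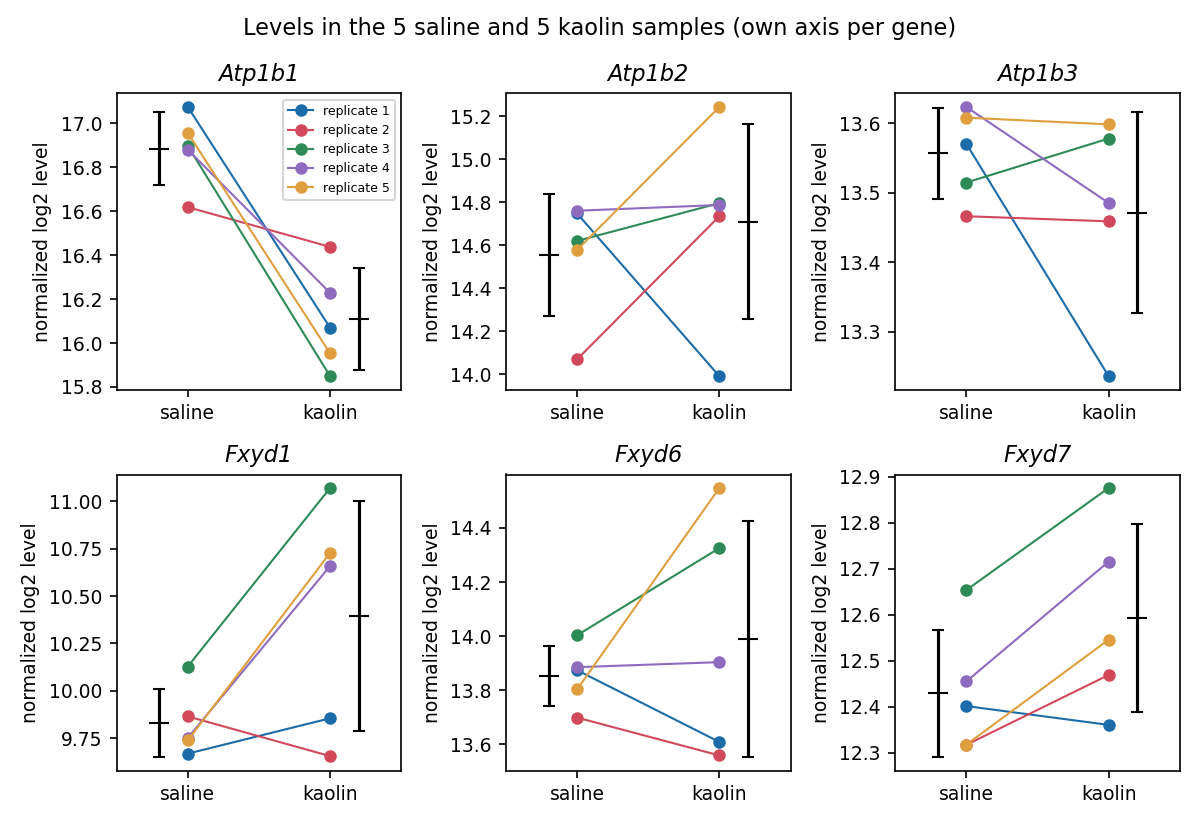
Normalised log2 level in each saline and kaolin sample, with a line joining the samples of 1 array and bars for the mean and SD of each group of 5. Each gene has its own vertical axis, and levels of different genes are not comparable. The kaolin and saline points of Atp1b1 do not overlap (15.85 to 16.44 against 16.62 to 17.08), and those of the other 5 genes do.

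Fxyd1 encodes phospholemman, the FXYD protein whose phosphorylation by protein kinases relieves its inhibition of the pump in heart and muscle. Its probe, at chr1:86095744-86096982, had saline levels of 9.67, 9.86, 10.13, 9.75 and 9.74 on replicates 1 to 5. The kaolin levels were 9.86, 9.66, 11.07, 10.66 and 10.73. The kaolin samples of replicates 3, 4 and 5 lay above every saline sample, and those of replicates 1 and 2 lay within the saline range or just below it.

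The log2 ratios of Fxyd1 were 0.19, -0.21, 0.94, 0.91 and 0.99. Their mean was 0.56 ± 0.54 (SD, n = 5), a 1.48-fold higher signal in kaolin, positive on 4 of 5 arrays, and 98.0% of tested probes had a lower mean. Without replicate 2 the mean was 0.76 ± 0.38 (n = 4), within the slide of replicates 1 to 4 it was 0.46 ± 0.56, and with the sign of replicate 2 turned it was 0.65 ± 0.41.

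Fxyd6 encodes phosphohippolin, a brain-rich FXYD protein. Its probe, at chr8:48371770-48371828 on the plus strand, gave log2 ratios of -0.27, -0.14, 0.32, 0.02 and 0.74, with a mean of 0.14 ± 0.41 (SD, n = 5). Kaolin levels ran from 13.56 to 14.55 and saline levels from 13.70 to 14.00, and the groups overlapped. Replicate 5 gave the highest ratio, and without it the mean was -0.02 ± 0.25.

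Fxyd7 encodes a regulator found in neurons and glia. Its probe, at chr1:86086158-86086217, gave log2 ratios of -0.04, 0.15, 0.22, 0.26 and 0.23, with a mean of 0.16 ± 0.12 (SD, n = 5), positive on 4 of 5 arrays. Kaolin levels ran from 12.36 to 12.88 and saline levels from 12.32 to 12.65, so the groups overlapped although 4 of 5 pairs leaned one way. Leaving out 1 array at a time kept the mean between 0.14 and 0.22.

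Fxyd7 and Fxyd1 sit in a row of FXYD genes on rat chromosome 1. In build rn4 the brightest probes of Fxyd5, Fxyd7, Fxyd1 and Fxyd3 lay within 37.3 kb, in that order and on the minus strand. Fxyd5, known as dysadherin for its effect on cell adhesion, gave 0.07, -0.38, 1.03, 0.57 and 0.56 on replicates 1 to 5 with that probe. A dimmer Fxyd5 probe, listed on the plus strand, gave 0.25, -0.02, 0.35, 0.12 and 0.08. That probe was near the floor, with a mean log2 brightness of 6.48, and was well above background on 3 kaolin channels and 1 saline channel. Fxyd3, a regulator found mainly in epithelia, gave 0.29, 0.03, 0.81, 0.52 and 1.07, positive on 5 of 5 arrays with a mean of 0.55 ± 0.41. With their brightest probes, Fxyd1, Fxyd3 and Fxyd5 each had ratios over 0.5 on replicates 3, 4 and 5 and under 0.3 on replicates 1 and 2. The dimmer Fxyd5 probe did not pass 0.5 on any array, and the Fxyd7 ratios stayed under 0.3 on every array. Those cutoffs were set after the values were seen. The share of all tested probes with the same pattern was not computed, so nothing is read from it about neighbouring genes.

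The rest of the pump was read from a list of 13 further genes: 10 had a probe on the array by name and 7 could be tested. Of these 7, 0 passed the adjusted threshold in limma, and 3 higher and 2 lower had an unadjusted p under 0.05, where 8.82% and 9.32% of all tested probes had. Their means were positive for 4 and negative for 3, with a median of 0.25.

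The 2 highest means of that list were those of Fxyd3, given above, and Nkain4. Nkain4 belongs to a family of membrane proteins named for their interaction with the pump, and its ratios were 0.63, -0.30, 0.93, 0.42 and 0.67, with a mean of 0.47 ± 0.47. Fxyd5, described above, had a mean of 0.37 ± 0.54, and Fxyd2, the gamma subunit known from kidney, one of 0.25 ± 0.22 with a positive ratio on 5 of 5 arrays. Among the listed genes not tested, Atp1b4 and Fxyd4 were not well above background on any array.

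Genes that use or sustain the ion gradients of the pump had means from -0.39 to 0.09. Of 11 transporters and channels listed, 11 were tested, 3 had a positive and 8 a negative mean, the median was -0.07 (-0.24 under median centring in place of loess), and 0 passed the adjusted threshold in limma, with 0 higher and 1 lower (Slc8a2) at an unadjusted p under 0.05, against the same shares. The highest mean was 0.09 ± 0.43 for Slc4a4, a sodium bicarbonate cotransporter. The lowest were -0.39 ± 0.36 for Slc8a2 and -0.20 ± 0.39 for Slc8a1, both sodium calcium exchangers.

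Beside Atp1b1, which was negative on 5 of 5 arrays, the median of the neuron markers was negative on 4. The 6 neuron markers had a negative mean in 6 of 6, and their median ratio was -0.36, 0.27, -0.37, -0.25 and -0.29 on replicates 1 to 5. The mean log2 level of that list was 13.26 to 13.77 in kaolin and 13.52 to 13.76 in saline samples. Atp1b1 and the neuron list both had their highest ratio on replicate 2, where the list was above 0 and Atp1b1 was below. On each of the 5 arrays the Atp1b1 ratio lay below the median of the neuron list. The neuron probes were dimmer, with a mean log2 brightness of 10.4 (Syt1) to 15.5 (Snap25) against 16.5 for Atp1b1. Spots as bright as Atp1b1 leaned negative as a class, so the ratios are set side by side at unlike brightness.

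Choroid plexus, an epithelium rich in the pump, was read from 10 markers, 8 of which could be tested. Of these 8, Clic6 was above background in saline channels alone (3 arrays) and Otx2 on 4 saline and 1 kaolin channels, so they passed the filter through the group where they were high and had to differ. The mean was negative for all 8, and nothing is read from that count or from the median and level of the list. Among markers above background in both channels on all arrays, which leaves out Clic6 and Otx2, the median of the means was -0.47, as over all 8. The median ratio of the 8 was -0.84, -0.47, -0.95, -0.22 and -0.04 on replicates 1 to 5. The mean log2 level of the list was 8.0 to 8.58 in kaolin and 8.12 to 9.99 in saline samples. Ttr, the defining transthyretin gene, gave -4.11, -1.89, -4.29, -3.85 and -0.12. The markers Kl and Slc4a5 were not well above background on any kaolin channel. The 6 oligodendrocyte markers had a median ratio of 0.25, 0.11, 0.01, 0.24 and -0.63, with 3 positive and 3 negative means. The part of these cell types in the Atp1b1 ratio was not tested.

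Fxyd1 was high on the same 3 arrays as the reactive astrocyte, microglia and ependyma markers. The 6 reactive astrocyte markers had a median ratio of 0.09, 0.02, 2.31, 1.95 and 2.48, and a mean log2 level of 10.46 to 13.06 in kaolin against 10.32 to 10.95 in saline. The 6 microglia markers had a median of 0.11, 0.10, 2.23, 1.5 and 1.96, and a mean level of 10.34 to 12.49 in kaolin against 10.15 to 10.43 in saline. Means were positive in 6 of 6 of each list. On replicate 1 the single reactive astrocyte markers ran from -0.22 (Nes) to 0.81 (S100a10) and the microglia markers from -0.16 (Cd68) to 0.66 (Tyrobp). On replicate 2 they ran from -0.30 (S100a10) to 0.60 (Gfap) and from -0.05 (Aif1) to 0.41 (C1qb). The 7 general astrocyte markers had a median of -0.16, 0.26, -0.16, -0.02 and 0.23, with 3 positive and 4 negative means. Single markers of that list differed. They ran from -0.57 (Gjb6) to 0.98 (Aqp4) on replicate 3 and from -0.28 (Gjb6) to 0.19 (Gja1) on replicate 4. On replicate 5 they ran from -0.26 (Gjb6) to 0.89 (Gja1). The 5 meninges markers had a median of -0.31, -0.17, 0.87, -0.17 and 0.68, and 2 ependyma markers had 0.52, -0.24, 1.2, 1.37 and 1.18. The 5 endothelium markers had a median of the means of 0.02. Over all tested probes, replicates 3 and 4 correlated at 0.83, 3 and 5 at 0.57, and 4 and 5 at 0.45. The share of tested probes high on those 3 arrays alone was not computed. The part of these cell types in the Fxyd1 ratio was not tested.

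**Figure D4:**
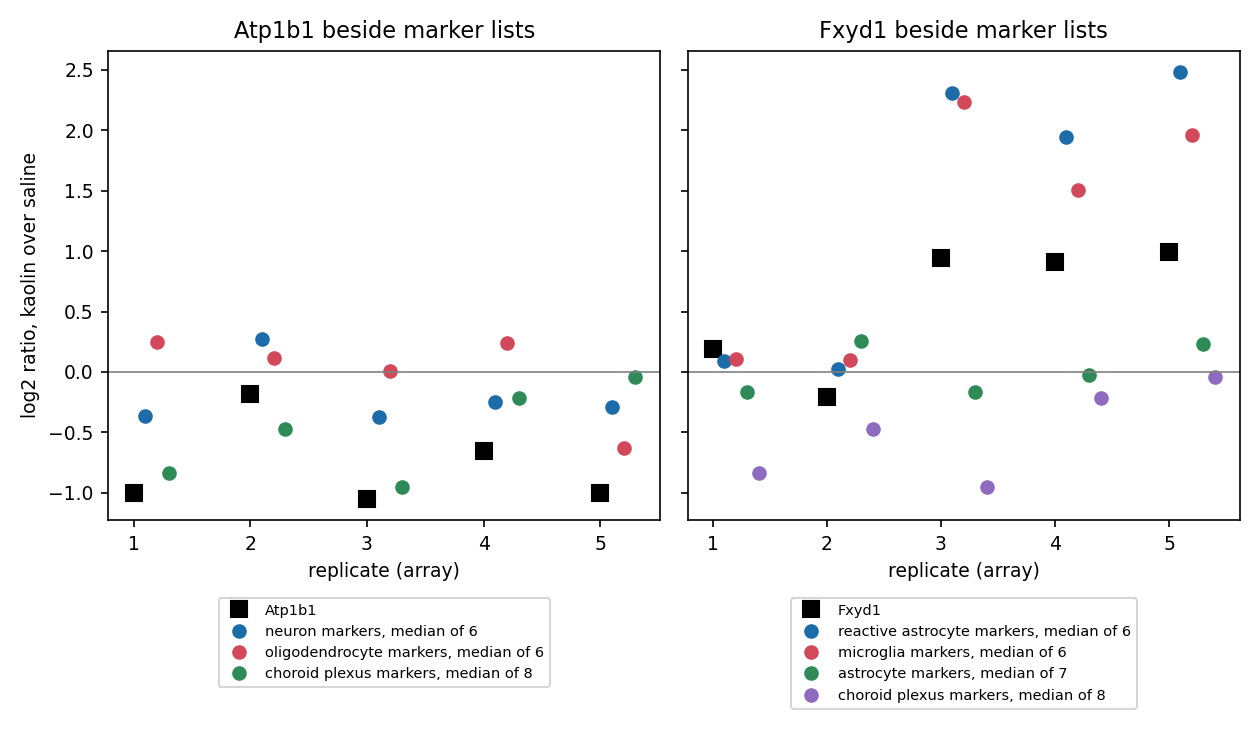
Log2 ratio of kaolin over saline (vertical axis) on each array (horizontal axis), as black squares for Atp1b1 (left) and Fxyd1 (right) and coloured circles for the median of each marker list. Fxyd1 and the medians of the reactive astrocyte and microglia lists are high on replicates 3, 4 and 5 and nearer 0 on replicates 1 and 2. Single markers of those lists, not drawn, spread more widely on replicates 1 and 2. The ependyma list, also high on replicates 3, 4 and 5, is not drawn. Atp1b1 lies between -1.05 and -0.18.

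The genes whose 5 ratios came closest to those of Atp1b1 and Fxyd1 were found by the root mean square difference over the 5 arrays. For Atp1b1 they were Ndrg4 at 0.126, Chgb at 0.157 and Cbarp at 0.172 log2 units. Chgb encodes chromogranin B of secretory granules, and Cbarp a regulator of voltage-gated calcium channels. For Fxyd1 they were Mx1 at 0.0827, Spsb2 at 0.0844 and RT1-DMa at 0.0931. Mx1 is an interferon-induced GTPase and RT1-DMa helps load peptides onto MHC class II. With 5 arrays shared by every gene this likeness is a description.

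How many probes passed the test turned on a few choices. Without replicate 2, 2.41% of tested probes were called higher and 2.78% lower by limma, and 2 of the 8 probes were among them, Fxyd1 higher (adjusted p = 0.0476) and Atp1b1 lower (adjusted p = 0.0404). With limma's array weights, which gave replicate 2 the lowest weight of 0.461, 5.40% were called higher and 6.54% lower, again with Fxyd1 and Atp1b1 among them (adjusted p = 0.0423 for each). With each array centred on its median and no loess, 0.0756% were called lower and 0 higher, Atp1b1 was among them (adjusted p = 0.0486) with a mean of -1.20, and the means of Atp1b2, Fxyd6 and Fxyd7 turned to -0.18, -0.16 and -0.07, while that of Atp1b3 went from -0.09 to -0.36. That setting moved the median of all probes to -0.10. Over all alternatives, adjusted p ranged from 0.0404 to 0.659 for Atp1b1 and from 0.0423 to 0.659 for Fxyd1. These p-values come from the contrast on which the genes were chosen and support nothing.

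**Figure D5:**
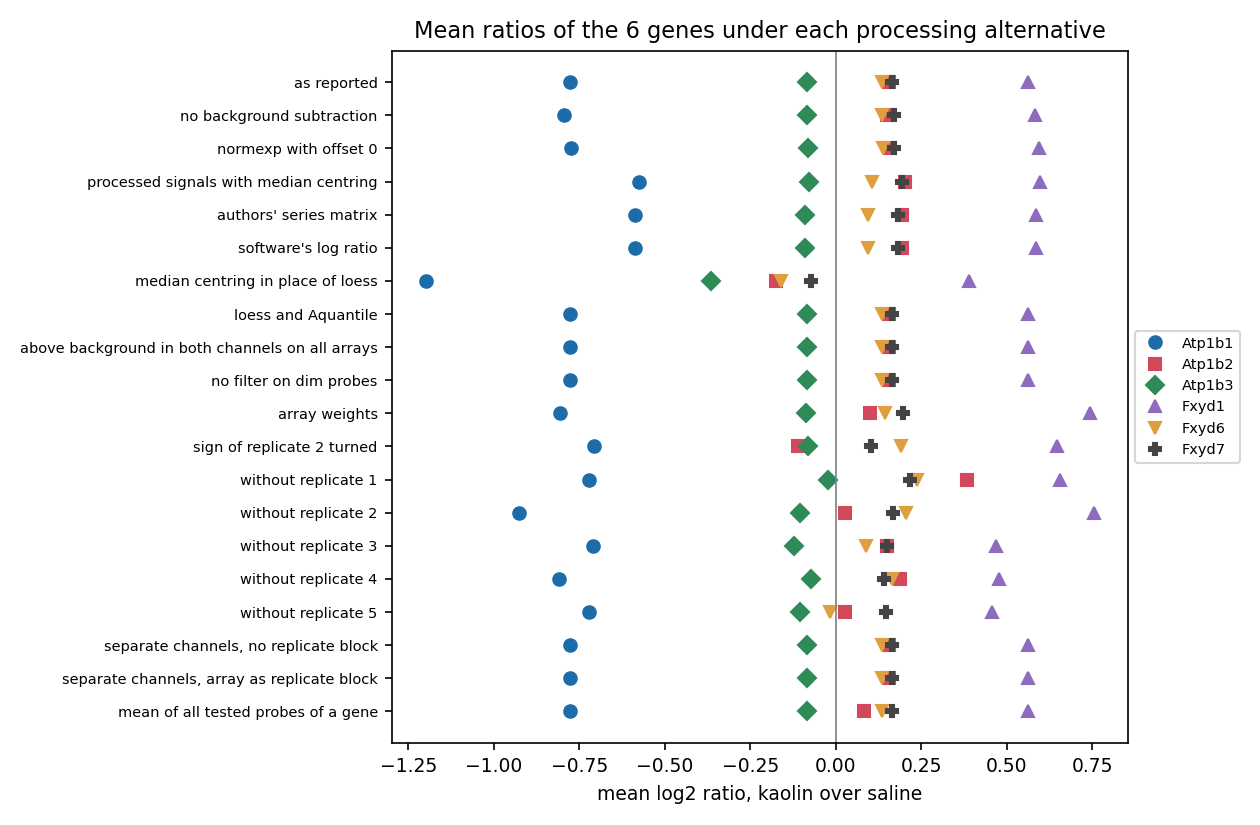
Mean log2 ratio of kaolin over saline (horizontal axis) of the 6 genes as reported and under each processing alternative (rows). Atp1b1 stays between -1.20 and -0.57 and Fxyd1 between 0.39 and 0.76, while Atp1b2, Fxyd6 and Fxyd7 cross 0 when each array is centred on its median in place of loess.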

How the data were processed

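RNA of 5 kaolin (Cy3) and 5 saline (Cy5) samples was measured on 5 two-colour Agilent arrays. Per the file headers, spots were read with Agilent Feature Extraction 10.1.1.1, and the deposited intensity columns are mean signals and median local backgrounds on a linear scale. The deposited log10 ratio (Cy5 over Cy3) and the authors' series matrix, which equals that ratio on a log2 scale with its sign turned, served as alternatives. The flags for spots above background, outliers and saturation were used as deposited.

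Signals were corrected with normexp (offset 50) and loess in limma 3.58.1 (R 4.3.3), control spots had weight 0, flagged spots were left out and spots of a probe were averaged. A log2 ratio is kaolin over saline, and levels per channel were scaled with Aquantile. A probe was tested when well above background in a channel on at least 3 of 5 arrays. The mean was set against 0 with lmFit and eBayes, two-sided, with Benjamini-Hochberg adjustment at 0.05; the array is the pairing unit. The precision is limited by the 5 arrays. Only the limma fit was tried on simulated data, with ratios taken as already normalised and changes larger than the means of Atp1b1 and Fxyd1. Background correction, loess, the filter and Aquantile were not part of that simulation. Alternatives changed the background correction, normalisation, filter, weights, sign of replicate 2, channel model and arrays used.

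A gene is shown by its brightest tested probe, and all probes of the 6 genes are given. Of the pump and sodium gradient lists, the rule names the 2 highest and 2 lowest means; some of these genes are not reported here, though the counts and medians of the lists include them. Fxyd2, Fxyd5 and genes not tested were added after their values were seen. Likeness names the 3 nearest genes to each of the 2 members with the largest mean. The members and lists were chosen with earlier results of these data known. Positions of probes come from the array files (rn4), for which no gene model was used, so exon and UTR are not given. Gene symbols were updated through RefSeq (GRCr8): 19401 probes have an official symbol and 21611 keep the file's name. Protein and probe sequences were not used here.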

Additional observations from a re-analysis of the deposited data

Results flagged for a closer look

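Of 24 sets of 5 values examined (ratios and levels of the 8 probes), 1 had a sample far from the rest. The saline levels of the brightest Atp1b2 probe were 14.75, 14.07, 14.62, 14.76 and 14.58 on replicates 1 to 5, and the gap of replicate 2 to its nearest neighbour was 0.736 of the whole range, above the critical value of 0.71 for 5 samples (Dixon's ratio). Chance alone gives such a gap in about 1 set of 20.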

How the results depend on the processing

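Of 114 values of the 6 genes under alternatives, 111 moved by less than 1 SD over the arrays and 5 changed sign: Atp1b2 to -0.18 under median centring and -0.11 with replicate 2 turned, Fxyd6 to -0.16 under median centring and -0.02 without replicate 5, and Fxyd7 to -0.07 under median centring. Many of the 114 values could not move so far. Aquantile, the filters and the separate channel models leave these means unchanged, as does averaging probes for a gene with 1 probe. Leaving out 1 of 5 arrays cannot shift a mean by 1 SD. The count of 111 is therefore no measure of stability. Probes called over the whole array (0 as reported) numbered 22 under median centring in place of loess, 3476 with array weights, 486 with the sign of replicate 2 turned (243 higher and 243 lower), 3 with separate channels and no replicate block, 4 with separate channels and the array as replicate block, and 0 to 1512 when 1 array was left out (1 without replicate 1 and 1512 without replicate 2). Of the 8 probes, 1 was called under median centring, 2 with array weights, and 0 to 2 with 1 array left out. The genes with a positive mean fell from 4 to 1 under median centring and were 3 to 4 with 1 array left out, and the median of the 6 means went from 0.15 to -0.17 under median centring and was 0.0059 to 0.23 with 1 array left out. Of 3 Atp1b2 probes, 1 to 3 had the sign of the brightest with 1 array left out (1 without replicate 5). The median of the pump list went from 0.25 to -0.03 with no filter on dim probes. That setting took the median over all 10 genes with a probe in place of the 7 tested. The genes it added were not well above background on any channel. Treating the channels separately changed no call of the 8 probes. The cause of the other shifts was not tested. With 5 arrays and no dye exchange, neither a dye effect nor the spread between animals could be measured.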
